A study of Mus musculus with 2 samples.

Results

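Interferon-signature neutrophils were the blood neutrophils whose transcripts of 5 interferon-stimulated genes, Ifit1, Ifit2, Ifit3, Ifit3b and Rsad2, together made up at least 15 of every 10000 unique molecular identifiers (UMIs, each standing for 1 captured transcript) of the cell. A cell was taken as a mature neutrophil when it had at least 1000 UMIs, at most 10% of them from mitochondrial genes, at least 5% of them from the calprotectin genes S100a8 and S100a9, and fewer than 20 per 10000 from Camp, Ngp and Ltf, the genes of specific granules that mark immature neutrophils. Of 34768 cells in all, 16485 met these limits and 2685 of those carried the signature (the signature cells), 1002 of 7875 neutrophils in WT and 1683 of 8610 in APP/PS1. The 13800 neutrophils below 15 per 10000 (6873 in WT and 6927 in APP/PS1) served as comparison cells within each library.

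Both libraries came from blood of 7-month-old female mice, enriched for neutrophils with an EasySep kit and run on the 10x Genomics 3′ v3.0 chemistry, 1 library of 3 pooled mice per genotype. WT mice were C57BL/6J with no treatment. APP/PS1 mice carry mutant human APP and presenilin 1 transgenes and deposit amyloid in the brain, and the promoter of the transgenes is not given in the sources used here. With 1 library per genotype there was no replicate error, so no test was made and no p-value is given, and the intervals printed (95% level) cover counting error only. The WT library held 17123 cells and 92458623 UMIs (median 3345 UMIs per cell), the APP/PS1 library 17645 cells and 84870864 UMIs (median 3115). The libraries shared 83 cell barcodes, which belonged to 5 signature cells of WT and 6 of APP/PS1.

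Type I interferons bind the receptor IFNAR1 and IFNAR2, which signals through the kinases JAK1 and TYK2 to the transcription factor complex ISGF3, which includes STAT2 and IRF9. ISGF3 binds the interferon-stimulated response element (ISRE) near the starts of interferon-stimulated genes, while interferon gamma acts on the gamma-activated site (GAS). The products of these genes block viral translation and replication, sense foreign nucleic acid, or damp the signal itself, and a subset of neutrophils with high levels of them is a known state of mouse blood neutrophils.

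The genes of the rule lie at 2 places in the genome (mm10, GENCODE M21). Ifit2, Ifit3, Ifit3b and Ifit1, which encode proteins that bind viral RNA and limit its translation, lie in a row on chromosome 19 from 34550694 to 34650009, with Ifit1bl1 and Ifit1bl2 between them. Rsad2, which encodes viperin, an enzyme that makes a chain-terminating nucleotide, lies on chromosome 12 from 26442746 to 26456452 on the minus strand, and its neighbour Cmpk2, which encodes the nucleotide kinase that feeds that reaction, lies from 26469204 to 26479837 on the plus strand. The 250 bases before the RefSeq start (GRCm38.p6, 5′ to 3′ on the strand of the gene) are shown for the rule genes and for Isg15, because ISGF3 is known to act at such sites and these genes carry the signature or follow it. Capitals mark each match to the ISRE letters, GAAA and a second GAAA with any 2 bases between them, which read as TTTC and TTTC when the match lies on the opposite strand. A match is a description of the letters, not a site shown to be used.
Ifit1, chr19:34640639-34640888, plus strand: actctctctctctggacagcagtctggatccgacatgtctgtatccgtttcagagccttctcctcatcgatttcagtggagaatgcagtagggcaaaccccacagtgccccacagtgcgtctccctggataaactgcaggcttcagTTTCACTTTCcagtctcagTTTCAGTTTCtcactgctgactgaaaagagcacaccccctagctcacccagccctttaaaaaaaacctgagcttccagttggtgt
Ifit2, chr19:34550444-34550693, plus strand: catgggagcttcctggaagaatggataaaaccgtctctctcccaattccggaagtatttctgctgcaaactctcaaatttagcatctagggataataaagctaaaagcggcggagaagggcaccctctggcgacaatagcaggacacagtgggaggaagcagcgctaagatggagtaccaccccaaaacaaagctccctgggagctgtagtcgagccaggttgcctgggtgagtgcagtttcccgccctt
Ifit3, chr19:34583279-34583528, plus strand: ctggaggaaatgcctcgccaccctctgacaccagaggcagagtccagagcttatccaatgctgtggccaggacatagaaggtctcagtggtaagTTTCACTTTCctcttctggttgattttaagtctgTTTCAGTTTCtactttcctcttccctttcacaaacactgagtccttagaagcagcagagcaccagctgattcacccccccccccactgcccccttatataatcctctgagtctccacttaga
Ifit3b, chr19:34607707-34607956, plus strand: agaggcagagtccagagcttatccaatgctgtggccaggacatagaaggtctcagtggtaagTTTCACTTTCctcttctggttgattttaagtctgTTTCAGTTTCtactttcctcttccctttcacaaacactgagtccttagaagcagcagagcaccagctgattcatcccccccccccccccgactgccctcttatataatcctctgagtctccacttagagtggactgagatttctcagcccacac
Rsad2, chr12:26456453-26456702, minus strand: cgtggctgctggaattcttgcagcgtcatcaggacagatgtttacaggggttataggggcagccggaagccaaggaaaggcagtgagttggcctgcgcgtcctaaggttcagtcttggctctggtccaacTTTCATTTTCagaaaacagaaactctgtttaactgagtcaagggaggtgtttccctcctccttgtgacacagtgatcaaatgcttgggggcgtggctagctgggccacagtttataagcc
Isg15, chr4:156200819-156201068, minus strand: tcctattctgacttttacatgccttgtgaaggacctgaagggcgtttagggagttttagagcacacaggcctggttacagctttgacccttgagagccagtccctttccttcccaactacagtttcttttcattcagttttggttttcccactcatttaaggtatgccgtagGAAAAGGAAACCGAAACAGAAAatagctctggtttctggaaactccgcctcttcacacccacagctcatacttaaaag

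Ifit1, Ifit3 and Ifit3b each held 2 ISRE matches and Rsad2 held 1, all on the opposite strand, and Isg15 held 3 overlapping matches on the same strand. The match nearest the start lay 75 bases before it in Ifit1, 112 in Ifit3, 144 in Ifit3b, 110 in Rsad2 and 56 in Isg15. Ifit2 had no match in the window of either of its 2 RefSeq starts, which says only that these letters are not in those windows. Ifit3 and Ifit3b shared a run of 169 identical bases before the start, and as near-identical neighbours they can share reads, so the split of counts between them is uncertain. Over the whole table, in windows from 250 bases before to 50 after a start and on both strands, 1079 of 27025 genes (3.99%) held the ISRE letters and 2582 (9.55%) held the GAS letters TTCNNNGAA, with overlapping matches counted.

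The 5 genes of the rule chose the cells, so their levels are a description. Levels are summed UMIs of a group of cells per 1000000 UMIs of that group (CPM), and since 3′ UMIs count transcript ends they were not divided by gene length. Rsad2 had 1649 CPM in WT signature cells against 226 CPM in WT comparison cells, and 1692 against 268 CPM in APP/PS1. Rsad2 alone supplied 53.0% of the signature UMIs in WT and 53.5% in APP/PS1. Ifit1 followed with 667 against 67.7 CPM in WT and 576 against 64.9 CPM in APP/PS1. Ifit2 was the least abundant, at 88.1 against 7.18 CPM in WT and 74.2 against 6.9999 CPM in APP/PS1, and had the largest log2 ratio of the 5 (3.62 and 3.41). Ifit3 and Ifit3b lay between, with log2 ratios of 3.38 and 3.33 in WT and 3.25 and 3.17 in APP/PS1. In both libraries the order of the 5 levels in signature cells was Rsad2, Ifit1, Ifit3, Ifit3b, Ifit2.

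Most signature cells held UMIs of several of these genes, which follows in part from choosing the cells by their sum. The numbers were not set against comparison cells. Of the 1002 WT signature cells, 140 had UMIs of only 1 of the 5 genes, 278 of 2, 276 of 3, 226 of 4 and 82 of all 5. Of the 1683 APP/PS1 signature cells, the numbers were 231, 367, 434, 499 and 152. Cells that owed the signature to Rsad2 alone numbered 131 in WT and 225 in APP/PS1, and only 45 and 46 had no Rsad2 UMI. The median signature cell held 8 signature UMIs in WT and 10 in APP/PS1. Each gene was also left out in turn and cells were chosen by the other 4 at 12 or more per 10000. For Ifit3 and Ifit3b this does not set the measured gene apart, since reads of each may be counted in the other, which stayed among the 4. The gene left out was then higher in the chosen cells by 6.69-fold (Ifit1), 9.40-fold (Ifit2), 7.61-fold (Ifit3), 7.47-fold (Ifit3b) and 5.53-fold (Rsad2) in WT. In APP/PS1 the same ratios were 6.54, 9.59, 6.71, 6.95 and 4.31-fold. Ifit1, Ifit2 and Rsad2 were thus higher in cells chosen without them, in both libraries.

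The signature was graded over neutrophils and had no gap at the limit. Neutrophils with no signature UMI made up 49.0% in WT and 42.6% in APP/PS1, and the median was 1.23 per 10000 in WT and 3.27 in APP/PS1. Just below the limit, from 10 to under 15 per 10000, WT had 502 cells and APP/PS1 had 588, and just above it, from 15 to under 20, the numbers were 298 and 413. Cells at 60 or more numbered 125 in WT and 245 in APP/PS1, and the highest cell reached 348 per 10000 in WT and 386 in APP/PS1. Among signature cells the median was 26.0 in WT and 28.7 in APP/PS1.

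**Figure D1:**
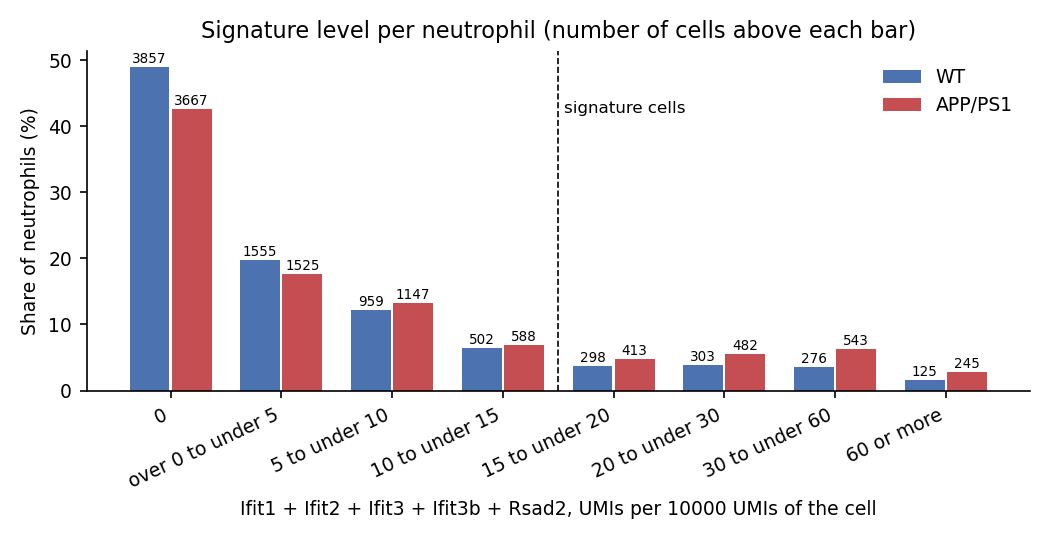
Share of mature neutrophils (y axis, %) by the level of Ifit1, Ifit2, Ifit3, Ifit3b and Rsad2 together (x axis, UMIs per 10000 UMIs of the cell) in WT and APP/PS1, with the number of cells above each bar. The dashed line is the limit of 15: each of the 4 bins drawn above it held a larger share in APP/PS1, and no gap separated the cells on its sides.

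Signature cells made up 12.7% of WT neutrophils (exact Clopper-Pearson interval 11.995 to 13.5%) and 19.5% of APP/PS1 neutrophils (18.7 to 20.4%). The share was 6.82 percentage points higher in the APP/PS1 library (Newcombe interval 5.71 to 7.94), a ratio of 1.54. This is a difference between 2 libraries, and genotype, pool of mice and library cannot be told apart. The median UMIs of signature and comparison cells were 2601 and 2727 in WT and 2863 and 2887 in APP/PS1. Their means differed more, and in opposite directions, at 3909 and 4760 UMIs in WT and 5292 and 4372 in APP/PS1. Cells with 5000 UMIs or more, which weigh most in summed UMIs, made up 12.6% of signature and 17.8% of comparison cells in WT, and 19.5% and 17.5% in APP/PS1. Within ranges of depth, the share in WT and APP/PS1 was 16.2% and 23.5% from 1000 to under 2000 UMIs, 13.4% and 18.9% up to 3000, 11.995% and 18.1% up to 5000, and 9.32% and 21.3% at 5000 or more. It was higher in APP/PS1 in each of the 4 ranges. With every cell thinned to 1000 UMIs, for which no cell was too shallow, the shares were 13.8% and 20.01%.

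The share was also set against maturation and against platelet transcripts. Neutrophils at or above their library's median of Retnlg, a resistin family gene high in mature blood neutrophils, carried the signature in 11.6% of cells in WT and 17.3% in APP/PS1. Those below the median carried it in 13.9% and 21.8%. Neutrophils with 5 or more UMIs per 10000 of the platelet genes Ppbp and Pf4 carried it in 12.9% in WT and 18.7% in APP/PS1, and those with fewer in 12.6% and 20.01%. Both splits kept the order of the libraries.

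The same limit was applied to the other cells of the libraries, and how much of their share is background was not tested. Monocytes, taken by Csf1r, Ccr2 and Ms4a6c, reached it in 60 of 4627 cells in WT (1.30%, 0.991 to 1.67%) and in 107 of 3335 in APP/PS1 (3.21%, 2.64 to 3.86%). B cells reached it in 0 of 178 cells in WT, which allows a share of up to 1.69% by the limit of 3 counts (exact upper bound 2.05%), and in 0 of 231 in APP/PS1, which allows up to 1.30% (1.58%). T cells reached it in 1 of 170 and 2 of 214 cells. Immature neutrophils, those with 20 or more Camp, Ngp and Ltf UMIs per 10000, reached it in 5 of 94 and 3 of 200 cells. Median depths were 6608 and 6645 UMIs for monocytes, 3582 and 5211 for B cells, 3517 and 3145 for T cells, 6559 and 7277.5 for immature neutrophils and 2711 and 2884 for mature neutrophils. In both libraries the share in mature neutrophils was above the upper bound of the interval of monocytes, B cells and T cells, also among those with 5000 UMIs or more. Immature neutrophils had an upper bound of 11.98% in WT, above the 9.32% of mature neutrophils with 5000 UMIs or more, and of 4.32% in APP/PS1.

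**Figure D2:**
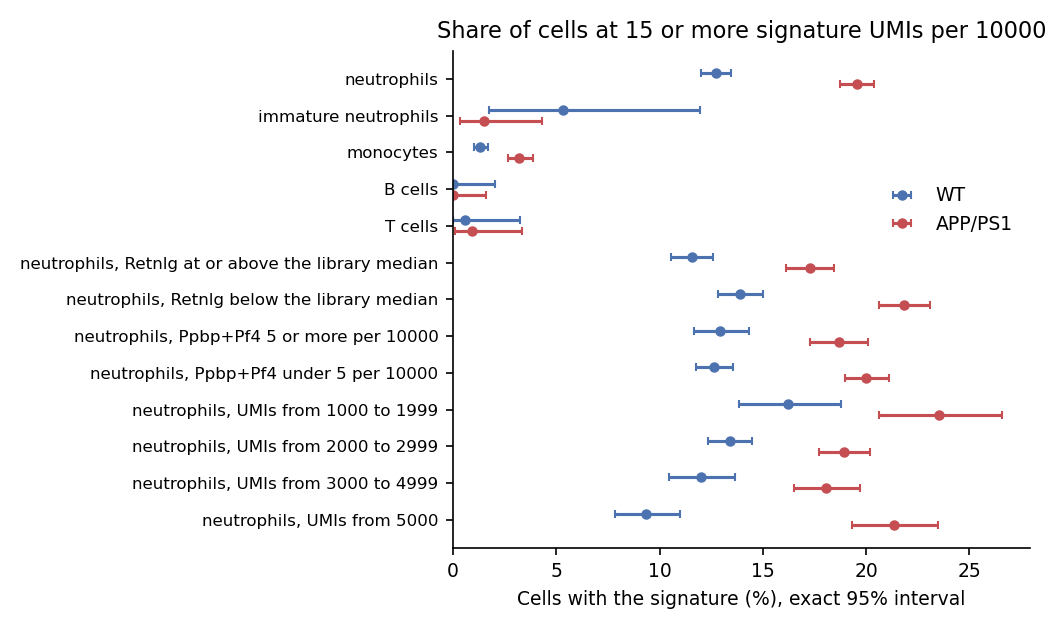
Share of cells (x axis, %, with exact Clopper-Pearson intervals) at or above 15 signature UMIs per 10000 in WT and APP/PS1, by cell class, by Retnlg, by platelet genes and by UMIs per neutrophil. The APP/PS1 share lies above the WT share in all 9 rows of mature neutrophils and in monocytes.

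Because signature cells were chosen by 5 genes within each library, every other difference from the comparison cells is described, not tested. Among 6923 genes with at least 200 UMIs in the neutrophils of each library, 46 (0.664%) were over 2-fold higher in signature cells in WT and 41 (0.592%) in APP/PS1. Of these, 37 (0.534%) were higher in both libraries, the 5 rule genes and 32 others, and 29 of the 32 were in the gene lists. The 3 outside the lists were Ifi47, an interferon-inducible GTPase, Mitd1 and the antisense gene Gm13822. Over 2-fold lower were 245 genes (3.54%) in WT and 23 (0.332%) in APP/PS1, 9 of them (0.130%) in both. These numbers of lower genes dropped to 3 and 1 when each cell was thinned to 1000 UMIs. The median log2 ratio over all genes was -0.10 in WT and -0.01 in APP/PS1.

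The highest ratios outside the rule belonged to antiviral enzymes and to regulators of the response. Cmpk2, the neighbour of Rsad2, had 156 CPM in WT signature cells against 34.0 CPM in comparison cells and 192 against 46.1 CPM in APP/PS1, log2 ratios of 2.20 (2.06 to 2.35) and 2.06 (1.95 to 2.16). Herc6, the mouse ligase that attaches ISG15 to proteins, had 91.4 against 20.9 CPM in WT and 90.7 against 22.4 CPM in APP/PS1 (log2 ratios 2.13 and 2.02). Usp18, which removes ISG15 and blocks signalling at IFNAR2, had 78.4 against 17.5 CPM in WT and 86.6 against 21.4 CPM in APP/PS1 (2.17 and 2.02). Isg15 itself, a ubiquitin-like modifier, was among the most abundant, at 928 against 261 CPM in WT and 986 against 348 CPM in APP/PS1 (1.83 and 1.51). Next to it in level were Slfn5, at 799 against 226 CPM in WT and 898 against 284 CPM in APP/PS1, and Slfn4, at 973 against 383 and 958 against 414 CPM. Signature cells of both libraries stood above both groups of comparison cells for each of these genes.

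The rest of the 20 highest included enzymes, GTPases, sensors and an antisense gene. Oasl1 (log2 ratios 1.94 in WT and 1.67 in APP/PS1), Oas2 (1.22 and 1.23) and Isg20 (1.30 and 1.21) encode an OAS-like protein, a synthase that activates RNase L and an exonuclease. Ifi47 (1.88 and 1.73), Irgm1 (1.498 and 1.491), Gbp2b (1.52 and 1.56) and Gbp7 (1.25 and 1.19) encode interferon-inducible GTPases that act on vacuoles holding pathogens. Ifih1 (1.59 and 1.40) and Ifi204 (1.32 and 1.29) encode sensors of foreign RNA and DNA. Stat2 (1.26 and 1.33) encodes a subunit of ISGF3. Slfn8 (1.53 and 1.44), Xaf1 (1.40 and 1.40) and Ifit1bl2 (1.66 and 1.64) complete the list with Gm13822 (1.63 and 1.43). Gm13822 runs from 114917318 to 114923277 on the minus strand of chromosome 5 and overlaps Oasl1, which runs from 114923240 to 114937915 on the plus strand, only at their 5′ ends. The use of strand in counting is not stated in the sources used here, so reads within that overlap cannot be told apart, while the annotated 3′ ends lie outside it. In the windows defined above, 17 of the 27 matched genes among the 32 (63.0%) held the ISRE letters and 5 (18.5%) the GAS letters, against 4.47% and 8.22% of 5523 matched genes measured. Ifit1bl2 counts among the 17 through the same 2 matches as Ifit1, since these genes diverge and their 250-base windows overlap by 145 bases.

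**Figure D3:**
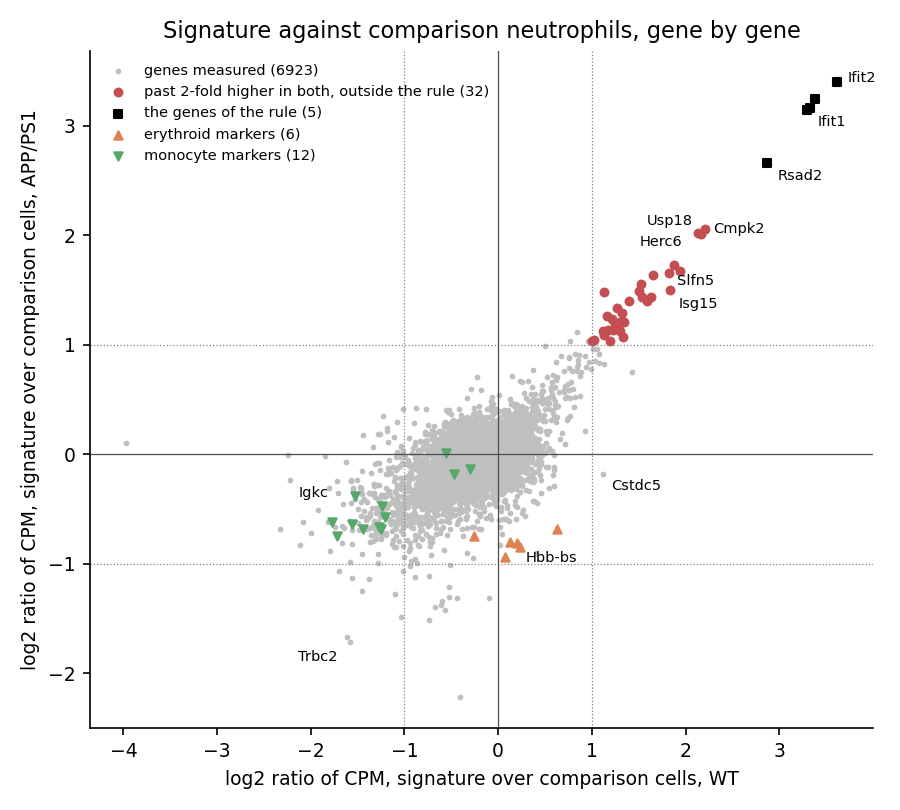
Log2 ratio of CPM between signature and comparison cells in WT (x axis) and APP/PS1 (y axis) for 6923 genes, with dotted lines at 2-fold. The genes of the rule and 32 others lie past 2-fold at the upper right, monocyte markers lie lower by more in WT than in APP/PS1, and erythroid markers lie below 0 only on the APP/PS1 axis except Alas2, which lies below 0 on both.

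The machinery that receives interferon lay near the level of the comparison cells. Of 9 receptor and kinase genes, none was past 2-fold in either library, and the list medians were -0.01 in WT and -0.04 in APP/PS1. Over all genes measured, 0.664% were past 2-fold higher and 3.54% lower in WT, and 0.592% and 0.332% in APP/PS1. The count of 0 therefore does not set these 9 apart. Ifnar1 had 56.9 against 59.0 CPM in WT and 58.2 against 55.7 CPM in APP/PS1, and Ifnar2 had 160.1 against 159.9 CPM and 157 against 156 CPM. The interval of the log2 ratio was -0.26 to 0.15 and -0.08 to 0.21 for Ifnar1, and -0.12 to 0.12 and -0.09 to 0.09 for Ifnar2. Ifngr1, a chain of the interferon gamma receptor, was lower by a small amount (log2 ratios -0.26 and -0.14). Interferon transcripts themselves were nearly absent: 19 of 21 ligand genes, Ifnb1 among them, had 0 UMIs in the signature cells of each library. Ifng had 2 UMIs in WT and 5 in APP/PS1 signature cells, and Ifnk 1 and 2.

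The transcription factors of the pathway were mixed. Of 7 such genes, Irf7 (log2 ratios 1.13 in WT and 1.09 in APP/PS1) and Stat2 were past 2-fold higher in both libraries, and the list medians were 0.75 and 0.59. Irf7, which amplifies the response, had 250 against 115 CPM in WT and 267 against 126 CPM in APP/PS1. Irf9 (0.75 and 0.59), which encodes a subunit of ISGF3, was higher by less than 2-fold. Irf8, a factor of monocytes and dendritic cells, was past 2-fold lower in WT (-1.05) and had -0.49 in APP/PS1, and Irf5 had -0.46 and -0.10. Of 9 measured genes of negative feedback, Usp18 and Isg15 were past 2-fold in both libraries and Socs1 in WT (1.03, and 0.96 in APP/PS1), while Socs3 had 0.13 and 0.08, and the list medians were 0.16 and 0.25.

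The effector families were higher to different degrees. Of 8 OAS and RNase L genes, 5 were past 2-fold in each library (medians 1.01 in WT and 1.04 in APP/PS1), led by Oasl1, with Oasl2 the most abundant at 660 against 330 CPM in WT and 722 against 353 CPM in APP/PS1. Of 5 measured Schlafen genes, which encode regulators of immune cell growth and of transfer RNA, 3 were past 2-fold (medians 1.34 and 1.21), and Slfn1 (0.76 and 0.59) and Slfn2 (0.55 and 0.41) were the lowest. Of 8 measured guanylate-binding proteins and immunity GTPases, 6 were past 2-fold in WT and 5 in APP/PS1 (medians 1.18 and 1.10). Of 37 measured antiviral effectors, 11 were past 2-fold higher in WT and 9 in APP/PS1, and 1 was past 2-fold lower in WT (medians 0.70 and 0.66). That gene was Ms4a4c (-1.16 in WT and -0.45 in APP/PS1).

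Some interferon-inducible genes stayed near the comparison cells. Ifitm1 had log2 ratios of 0.0046 in WT and -0.07 in APP/PS1, Ifitm2 0.07 and -0.05 and Ifitm6 0.01 and -0.13. These encode membrane proteins that block entry of viruses, and Ifitm2 had 3952 against 3754 CPM in WT. Ifitm3 had 0.36 and 0.38. Of 14 measured nucleic acid sensors, 4 were past 2-fold higher in each library (Ifih1, Ddx58, Zbp1 and Ifi204), and Tlr7 (-1.08 and -0.63) and the STING gene Tmem173 (-1.19 and -0.47) were past 2-fold lower in WT (medians 0.12 and 0.37). Monocyte markers were lower alongside, with median log2 ratios of -1.26 in WT and -0.60 in APP/PS1. Without cells holding 2 or more UMIs of other types' markers, 5064 genes were measured in place of 6923. Of these, 2 in all were past 2-fold lower in WT. A cause of the lower sensor values was not tested. Within the cluster of Ifi200 genes, Ifi204 was high, while Mndal (-0.80 and -0.45) and Ifi203 (-0.77 and -0.35) were lower. Next to the Ifit genes, Ifit1bl1 had 69 UMIs in WT and 196 in APP/PS1 signature cells, which held 3917273 and 8905621 UMIs in all. Lipa had log2 ratios of 0.09 and 0.21, and Ch25h had 0 UMIs in signature cells.

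Among the genes measured, antigen presentation and cytokines differed little. None of 17 MHC class I and peptide loading genes was past 2-fold (medians 0.16 in WT and 0.23 in APP/PS1), and Tap1, a peptide transporter, had the highest ratio in WT (0.56, and 0.62 in APP/PS1). Of 6 measured interferon-inducible chemokines and cytokines none was past 2-fold (medians 0.16 and 0.24), with Cd274, the gene of PD-L1, the highest (0.63 and 0.71). Cxcl10, a chemokine for T cells, fell below the minimum of 200 UMIs in WT neutrophils and is not in these counts. It had 64 UMIs in WT and 233 in APP/PS1 signature cells, which held 3917273 and 8905621 UMIs in all. Signature cells were 1002 of 7875 WT neutrophils, so in WT its level was higher in them than in comparison cells. Of 12 measured inflammatory cytokines and chemokines none was past 2-fold (medians 0.19 and 0.13), and Il1b had 14747 against 12749 CPM in WT and 15112 against 13297 CPM in APP/PS1. Few of all genes measured were past 2-fold (0.664% higher and 3.54% lower in WT, 0.592% and 0.332% in APP/PS1). The counts of 0 in these lists are near those shares.

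**Figure D4:**
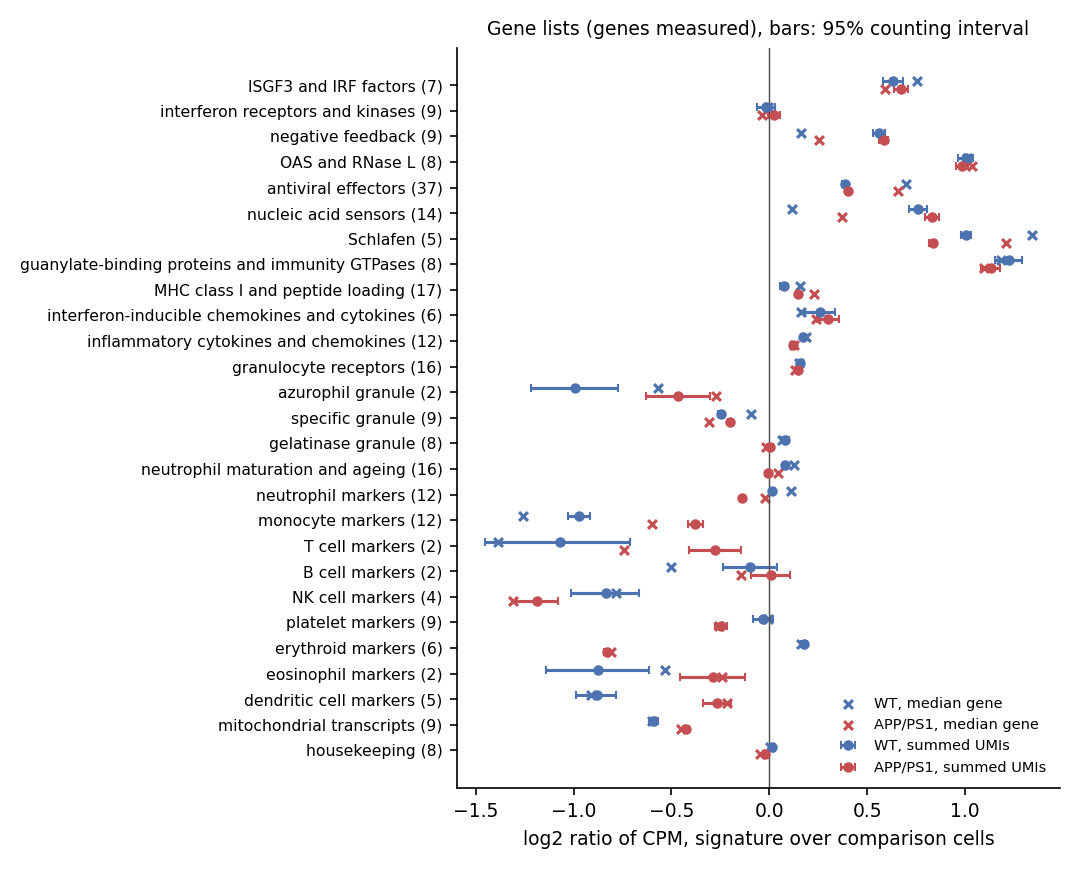
Log2 ratio of CPM between signature and comparison cells (x axis) for gene lists (y axis, with the number of genes measured), as the ratio of summed UMIs with its interval (dots) and as the ratio of the median gene (crosses) in WT and APP/PS1. Interferon response lists lie to the right in both libraries, receptors and housekeeping genes lie near 0, and erythroid markers lie on opposite sides of 0.

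Signature cells carried neutrophil markers at levels near those of the comparison cells. Of the 12 markers, S100a8 and S100a9 also chose both groups of cells. All 12 were measured and none was past 2-fold in either direction (medians 0.11 in WT and -0.02 in APP/PS1). Hdc, a histamine-making enzyme gene typical of mouse neutrophils, had 2353 against 1893 CPM in WT and 1963 against 1543 CPM in APP/PS1. Csf3r, the receptor of the growth factor G-CSF, had 2385 against 2144 CPM and 2563 against 2257 CPM. None of 16 granulocyte receptors (medians 0.15 and 0.13), 8 gelatinase granule genes (0.07 and -0.02), 16 maturation and ageing genes (0.12 and 0.04) or 8 housekeeping genes (0.00 and -0.05) was past 2-fold either. Over all 6923 genes, 0.664% were past 2-fold higher and 3.54% lower in WT, and 0.592% and 0.332% in APP/PS1. Counts of 0 in lists this short are near those shares and do not set the lists apart. Of 9 measured specific granule genes, Chil3 (-2.12 in WT and -0.83 in APP/PS1) and Cybb (-1.21 and -0.48) were past 2-fold lower in WT (medians -0.09 and -0.31). Of 2 measured azurophil granule genes, Ctsc was past 2-fold lower in WT (-1.16 and -0.62), and the list medians were -0.57 and -0.27. These lower values stood beside the lower monocyte markers given above for the sensors (9 of 12 past 2-fold lower in WT and 0 in APP/PS1).

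Outside the rule, levels followed the signature by steps. In WT, Isg15 had 173 CPM in neutrophils with no signature UMI, 461 CPM from 10 to under 15 per 10000, 626 CPM from 15 to under 20 and 2524 CPM at 60 or more. In APP/PS1 the same values were 230, 561, 643 and 2422 CPM. Usp18 went from 7.13 to 200 CPM in WT and from 9.39 to 221 CPM in APP/PS1 between the lowest and the highest bins. Ifnar1 lay between 49.8 and 64.0 CPM over all 8 bins in WT and between 47.0 and 63.5 CPM in APP/PS1. Cells with the signature from Rsad2 alone had less Isg15, at 487 CPM for WT and 770 CPM for APP/PS1, than cells with both Rsad2 and Ifit UMIs, 971 and 1000 CPM.

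**Figure D5:**
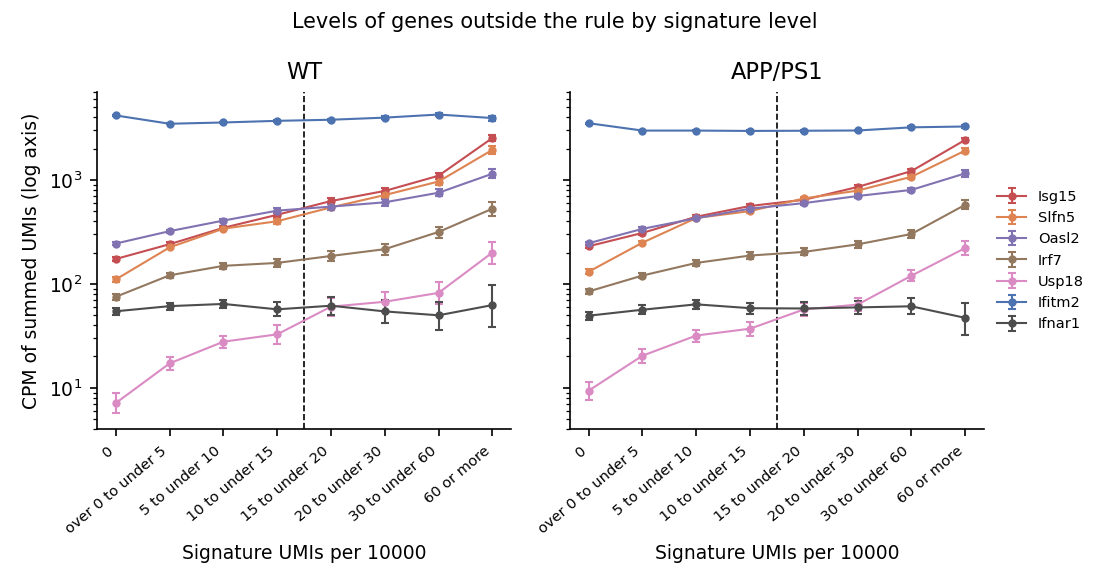
CPM of summed UMIs (y axis, log scale, with exact Poisson intervals) of 7 genes outside the rule by the signature level of the cells (x axis, UMIs per 10000) in WT and APP/PS1, with a dashed line at the limit of 15. Isg15, Slfn5, Oasl2, Irf7 and Usp18 increase over the bins on both sides of the limit, while Ifnar1 and Ifitm2 do not climb in the same way.

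Of the 10 genes lowest in both libraries, 4 are known from lymphocytes. The share of such genes among all genes measured was not counted, so this is a description of the 10 only. Trbc2 (log2 ratios -1.58 in WT and -1.72 in APP/PS1) encodes the constant region of the T cell receptor, and Gzmb (-1.38 and -1.14) and Prf1 (-1.10 and -1.28) encode killing proteins of cytotoxic cells. Ms4a4b (-1.61 and -1.67) is a lymphocyte gene. The others were Lgals1 (-1.56 and -1.13), Tnfsf13 (-1.70 and -1.07), Vma21 (-1.45 and -1.25), Dusp22 (-1.04 and -1.49), Nbdy (-1.01 and -1.07) and Slc25a4 (-1.29 and -0.996), which lay just inside 2-fold in APP/PS1. All 10 had at most 20.1 CPM in signature cells. The minimum of 200 UMIs was set on all neutrophils of a library, so a gene could pass it with few UMIs in signature cells. Signature and comparison cells of WT held 8 and 200 UMIs of Trbc2 and 14 and 305 of Gzmb. They held 16 and 286 UMIs of Prf1 and 17 and 433 of Ms4a4b. In APP/PS1 the same pairs were 20 and 224, 48 and 359, 52 and 429, and 44 and 475 UMIs.

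The lists of other cell types differed in size and in which library showed the lower level. Of 12 monocyte markers, 9 were past 2-fold lower in WT and 0 in APP/PS1, and their summed level was 719 against 1411 CPM in WT and 773 against 1004 CPM in APP/PS1, with Ctss the most abundant. Of 4 measured NK cell markers, 1 was past 2-fold lower in WT and 4 in APP/PS1 (sums 75.3 against 134 CPM and 89.4 against 204 CPM, led by Gzma). Dendritic cell markers summed to 211 against 390 CPM in WT and 225 against 271 CPM in APP/PS1, led by Cd74, and 1 of 5 measured, Cd74, was past 2-fold lower in WT. T cell markers summed to 16.6 against 34.8 CPM in WT and 65.0 against 78.7 CPM in APP/PS1. In APP/PS1, Cd3d alone supplied 52.6 of the 65.0 and 44.6 of the 78.7 CPM, with a log2 ratio of 0.24. Both genes measured, Trbc2 and Cd3d, were past 2-fold lower in WT and Trbc2 alone in APP/PS1. Among the defining markers, Siglech was at 0 UMIs in the signature cells of both libraries, and so were Cd4, Prss34 and Epx.

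B cell markers summed to 124 against 132 CPM in WT and 119 against 118 CPM in APP/PS1, led by Ighm, with neither of 2 measured genes past 2-fold. Cd79a, also measured, had 3.83 against 7.37 CPM in WT and 4.60 against 6.04 CPM in APP/PS1 (log2 ratios -0.94 and -0.39). Of 2 measured eosinophil markers, Ear2, also a gene of monocytes, was past 2-fold lower in WT (sums 32.7 against 59.8 CPM and 41.7 against 50.8 CPM). Basophil markers, none of which reached 200 UMIs, summed to 7.15 against 11.0 CPM in WT and 1.46 against 16.3 CPM in APP/PS1. Platelet markers summed to 935 against 956 CPM in WT and 1110 against 1317 CPM in APP/PS1, with none of 9 past 2-fold. All 9 mitochondrial genes were lower, with medians of -0.60 and -0.45. None of these sets of markers was higher in signature cells by more than its counting interval in both libraries.

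Cells with 2 or more UMIs of defining markers of monocytes, B, T or NK cells made up 12.9% of signature cells and 19.0% of comparison cells in WT, and 16.2% and 15.97% in APP/PS1. With such cells removed, 5064 genes kept enough UMIs, and 2 genes in WT and 0 in APP/PS1 were past 2-fold lower, while 63 and 58 were past 2-fold higher. After thinning, 3453 genes were measured. With the mean over cells in place of summed UMIs WT had 68 higher and 154 lower genes. Without the top 8% of the Scrublet score, a measure of likeness to simulated doublets, 40 genes in WT and 6 in APP/PS1 were past 2-fold lower.

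Between the libraries, signature cells of APP/PS1 and of WT differed past 2-fold in 36 genes higher (0.520%) and 30 lower (0.433%) in APP/PS1, against 8 (0.116%) and 17 (0.246%) in comparison cells. The signature cells held 3917273 UMIs in WT and 8905621 in APP/PS1, fewer than the 32714351 and 30286030 of the comparison cells. Counting error is larger with fewer UMIs, but all 36 and all 30 genes had intervals that excluded no change. Why the numbers of genes differ between signature and comparison cells was not tested. The counts in signature cells depended on the setting: 10 higher and 15 lower with each cell thinned, 12 and 32 without cells holding 2 or more UMIs of other types' markers, 13 and 20 at a limit of 10 per 10000, and 264 and 147 at a limit of 30. The rule genes chose both sets of signature cells at the same limit, so their similar level is a description and not a result. Their log2 ratios of APP/PS1 over WT ran from -0.25 for Ifit2 to 0.31 for Ifit3b, with 0.04 for Rsad2. Isg15 had 0.09 in signature cells and 0.41 in comparison cells, Slfn5 0.17 and 0.33, and Cmpk2 0.29 and 0.44. These genes were higher in signature cells of both libraries, so choosing both sets at the same limit also bears on their ratios there. Those ratios, and the values of the interferon response lists that follow, are a description as well. Of 37 antiviral effectors, none was past 2-fold higher in APP/PS1 signature cells and 2 were past 2-fold lower, Ifi44 (-1.04) and Phf11b (-1.15). None of the lists of OAS, Schlafen, GTPase or MHC class I genes had a gene past 2-fold, and the median of the 17 MHC class I genes was 0.24 in signature cells and 0.09 in comparison cells.

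The APP/PS1 to WT ratio differed most between signature and comparison cells for an antibody gene, a cystatin gene, haemoglobin genes and the monocyte marker Ccr2, with Pou2f2, Pld4 and Filip1l. Among 3553 genes with at least 100 UMIs in the signature cells of each library, the largest difference was that of Igkc, an antibody light chain gene, at 29.9 CPM in WT signature cells, 138.9 in WT comparison cells, 30.4 in APP/PS1 signature cells and 35.9 in APP/PS1 comparison cells. The WT comparison cells were the highest of the 4 groups. Cstdc5, a cystatin family gene, had 62.5 and 28.8 CPM in WT and 46.5 and 52.6 CPM in APP/PS1 in the same order. Ccr2, Pou2f2, Pld4 and Filip1l were lower in signature cells by more in WT (log2 ratios -1.56, -1.34, -1.31 and -1.22) than in APP/PS1 (-0.64, -0.36, -0.49 and -0.38).

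The other 4 were the haemoglobin genes. Hbb-bs had 5064 CPM in WT signature cells, 4407 in WT comparison cells, 1707 in APP/PS1 signature cells and 2997 in APP/PS1 comparison cells. Hba-a1, Hba-a2 and Hbb-bt followed the same order of the 4 groups. The 8 erythroid markers together stood at 10084, 8915, 3410 and 6058 CPM, and their part in the other differences was not tested beyond leaving out cells with over 1% haemoglobin UMIs, which left the shares at 12.7% and 19.6%.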

How the data were processed

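The deposited files hold UMI counts per gene and cell, which the authors made with Cell Ranger 5.0.0 on the mm10 reference of 10x Genomics, with no normalization, for all called cells. The depth was 92458623 UMIs in the WT library and 84870864 in the APP/PS1 library, and the minimum of 1000 UMIs per cell makes the limit of 15 per 10000 equal to 2 UMIs in the shallowest cells.

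From these counts, Python 3.11.15 with numpy 2.4.6 and scipy 1.17.1 applied the limits, summed UMIs per group and gave CPM. Ratios have exact conditional (binomial) intervals, CPM exact Poisson intervals and shares exact Clopper-Pearson intervals, at the 95% level. The floor for a count of 0 was 3 counts. With 1 library per genotype no test was made and a gene was counted past a 2-fold ratio among genes with at least 200 UMIs in the neutrophils of each library. The calculation was tested on simulated data. No per-sample column was left unused. Doublets were kept. In an alternative, the top 8% of the Scrublet score (scanpy 1.11.5) of each library was removed. Other alternatives changed the limits, the depth, the library size (edgeR 4.0.16, TMM), the mean and the gene filter, and 2 alternatives, an interval excluding no change and a haemoglobin limit of 1%, were chosen after seeing the data.

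The members, the limits and the gene lists were chosen with earlier results of these data known. Genes were named as the 5 rule genes, the extremes and most abundant genes of each list, the 20 highest and 10 lowest ratios ranked by the smaller of the 2 libraries, and the 10 genes whose APP/PS1 to WT ratio differed most between signature and comparison cells, among genes with at least 100 UMIs in the signature cells of each library. Other genes named, such as Ifng, Cxcl10, Ifngr1 and Lipa, were chosen after their values were seen. Promoters come from RefSeq (GRCm38.p6), matched by symbol. Of the genes in the gene lists, Oas1b, Mx1, Mx2, Mnda, Slfn10-ps, Cxcl11, Azu1 and BC100530 were not found by name among the genes counted. They have no expression value here.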

Additional observations from a re-analysis of the deposited data

Results flagged for a closer look

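For 6 genes of the lists the log2 ratio of signature to comparison cells lay at 0.1 or more from 0 on opposite sides in the libraries, with intervals that excluded 0 in each. The difference between the libraries was not tested. The haemoglobin genes Hba-a1 (0.13 in WT and -0.81 in APP/PS1), Hba-a2 (0.23 and -0.85) and Hbb-bs (0.20 and -0.81) were higher in WT signature cells and lower in APP/PS1 signature cells, as was Bpgm, an enzyme gene of red cells (0.63 and -0.69). Ly6g, the surface marker by which mouse neutrophils are usually sorted, had 0.12 and -0.12. Cd3d, a chain of the T cell receptor complex, went the other way, with -1.19 in WT and 0.24 in APP/PS1.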

How the results depend on the processing

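Of 126 values recomputed under alternatives, 80 stayed within the spread or 1.5-fold limit set for them and 46 moved, and neither the difference of the shares nor the medians of the antiviral effectors changed sign. The balance of counts did turn. In WT, 46 higher and 245 lower genes became 40 and 3 when thinned, 49 and 40 without the top Scrublet scores, and 63 and 2 without cells holding other types' markers. In APP/PS1, 41 and 23 became 62 and 258 at a limit of 30. Between the libraries, 36 and 30 became 29 and 33 with TMM library sizes and also with library sizes that left out abundant gene classes, 13 and 20 at a limit of 10, 10 and 15 when thinned, 17 and 26 without the top Scrublet scores, and 12 and 32 without cells holding other types' markers. The share of signature cells was higher in APP/PS1 under every cell alternative run. With a limit of 10 per 10000 the shares were 19.1% and 26.4%, the WT median of the antiviral effectors was 0.58, and lower genes numbered 66 in WT and 15 in APP/PS1. With a limit of 30 the shares were 5.09% and 9.15% (difference 4.06), the medians 0.9997 and 0.85, higher genes 84 and 62, lower genes 602 and 258, and genes between libraries 264 higher and 147 lower in APP/PS1. With each cell thinned to 1000 UMIs the WT share was 13.8%, the APP/PS1 median 0.84 and lower genes in APP/PS1 1. Without the top 8% of the Scrublet score the medians were 0.80 and 0.83 and lower genes in APP/PS1 6. Without cells holding 2 or more UMIs of other types' markers the WT share was 13.6%, the medians 1.09 and 1.02 and lower genes in APP/PS1 0. With the mean over cells the medians were 0.95 and 0.97, lower genes in WT 154, higher genes in APP/PS1 71, and genes between libraries 89 and 56. With at least 50 UMIs per gene the WT median was 0.58, higher genes in WT 72, lower genes 822 and 181, and genes between libraries 316 and 140. Some settings tested fewer genes, and otherwise the cause was not tested. No paired analysis was possible because each genotype has 1 library. The intervals cover counting error only, and no value measures the spread between mice.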

Other observations

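Values of 3 genes, chosen after they were seen, differed between the libraries. Cd3d had 52.6 CPM in APP/PS1 signature cells and 44.6 CPM in APP/PS1 comparison cells, against 3.83 and 8.74 CPM in WT, while the other CD3 chains stayed low (Cd3e 7 UMIs and Cd3g 29 UMIs in APP/PS1 signature cells). Cd14, a receptor for bacterial lipopolysaccharide, differed between the libraries in both groups of cells alike and stood at 966 CPM in signature cells and 909 CPM in comparison cells of WT, against 314 and 320 CPM in those of APP/PS1. Igha, an antibody heavy chain gene, had the lowest ratio of all measured genes in WT (-3.97) and 0.10 in APP/PS1.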
